A study of Mus musculus with 20 samples.

Results

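The genes described here encode the nuclear-encoded subunits of complexes I, III, IV and V of the mitochondrial respiratory chain, measured as mRNA in 20 mouse hearts. Members were chosen by gene symbol: Nduf followed by a, b, c, s or v and a digit for complex I, the 8 Uqcr symbols for complex III, Cox4 to Cox8 for complex IV, and Atp5a to Atp5o for complex V. Of 23284 genes in the tables, 79 matched, and 76 of these averaged 0.5 FPKM or more across the hearts (FPKM: sequenced fragments corrected for transcript length and for library size). The 76 comprised 37 genes of complex I, 8 of III, 17 of IV and 14 of V, among 12589 genes that passed the same limit. Cox7b2 and Cox8c, whose products are known from testis, and Atp5g2, a gene for the c subunit of complex V, fell below it. The symbol rule also took in Cox4nb, an older name of Emc8, whose product belongs to a membrane protein complex of the endoplasmic reticulum and not to complex IV, and it left out Cyc1 of complex III.

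The respiratory chain passes electrons from NADH and succinate to oxygen and pumps protons across the inner mitochondrial membrane. Complex I oxidises NADH, complex III passes electrons from ubiquinone to cytochrome c, complex IV reduces oxygen, and complex V uses the proton gradient to make ATP. The heart draws most of its ATP from this chain, and several complex IV subunits exist there as a heart and skeletal muscle isoform beside a widespread one.

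The hearts came from C57BL/6 mice that all carried floxed alleles of Wnt5a, the gene of a secreted Wnt ligand. The control mice had the floxed alleles alone, and the CKO mice had in addition a Myh6 transgene that makes a fusion of Cre and part of Esr1, the oestrogen receptor, in heart muscle cells. Hearts of both genotypes were taken when tamoxifen ended, with no operation, or else 2 or 4 weeks after surgery. The surgery was either a sham or TAC (transverse aortic constriction, which narrows the aorta and loads the left ventricle). This gave 10 groups of 2 hearts, and each heart is called by the number in its label. The control hearts were 22 and 23 (end of tamoxifen), 12 and 16 (sham) and 11 and 32 (TAC) at 2 weeks, and 6 and 7 (sham) and 1 and 2 (TAC) at 4 weeks. The CKO hearts were 21 and 24, then 14 and 15 and 13 and 31 at 2 weeks, and 4 and 8 and 3 and 41 at 4 weeks. A group with the Cre transgene and unfloxed Wnt5a was not analysed here.

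Summed FPKM were 579596 to 713671 per heart, and absolute sequencing depth is unknown. In control hearts the sums were 698050 and 696885 in sham and 627996 and 654588 in TAC hearts at 2 weeks. At 4 weeks they were 614816 and 680906 against 673994 and 681914. In CKO hearts the sums were 657836 and 713671 in sham and 626492 and 579596 in TAC hearts at 2 weeks. At 4 weeks they were 654846 and 666105 against 706673 and 689488. The part of these totals in the differences below was not tested. Esr1 was 197 to 931 FPKM in the 10 CKO hearts and 0.101 to 0.465 FPKM in the 10 control hearts, so this transgene sequence separated the genotypes as labelled. Wnt5a was 0.853 to 2.33 FPKM in CKO and 1.58 to 4.11 FPKM in control hearts, which overlapped. Hearts 11, 14, 16, 21 and 24 stood apart by the atrial gene Myl7, at 32.2 to 372 FPKM against at most 1.66 FPKM in the other 15 hearts, and counts of calls are given without these 5 hearts where that moved them by over 1.5 times. Myl7 was at 0 in 10 hearts, and the atrial genes Sln and Bmp10 were at 0 in 13 and 18. The 12 heart muscle markers were detected in all 20 hearts, at 32.4 FPKM or more. No gene with the mt- prefix of mitochondrially encoded subunits was in the tables.

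Respiratory chain transcripts were among the most abundant of the heart. The median member had a mean of 934 FPKM against 8.03 FPKM for all genes that passed the limit, 69 of the 76 were above 100 FPKM, and together they took 12.4% to 17.0% of the summed FPKM of a heart. Cox7a1 (5477 FPKM on average over the 20 hearts), Cox6a2 (4952 FPKM) and Cox8b (4861 FPKM), the muscle isoforms of complex IV, led the order. They were followed by Atp5b (4417 FPKM), the catalytic subunit of the ATP synthase head, Ndufa4 (4228 FPKM) and Cox4i1 (3880 FPKM). Within complex III the levels ranged only from 878 FPKM for Uqcrc1 to 2600 FPKM for Uqcrh. The least abundant members were Atp5l (2.80 FPKM), Cox6b2 (3.51 FPKM), Cox4nb (5.21 FPKM) and Cox7c (8.04 FPKM). Atp5l and Cox7c encode constitutive subunits, so their levels lay far below those of their partners in the same complex. Whether fragments of these short transcripts were divided with near-identical copies elsewhere in the genome was not tested, and their values are uncertain. In bulk tissue, fewer cells of a type and less RNA per cell cannot be told apart.

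Respiratory chain mRNA was lower after TAC than after sham in control hearts. Over both times, 55 of the 76 members fell and 1 rose, against 16.1% of all genes that fell and 15.3% that rose (limma on log2(FPKM + 0.5), adjusted p under 0.05 over 12589 genes). The median member differed by -0.32 between TAC and sham on that log2 scale, and the median of all genes by -0.00. Counts were 28 of 37 for complex I, 6 of 8 for III, 9 of 17 for IV and 12 of 14 for V, with medians of -0.31, -0.31, -0.30 and -0.37. For 28 of the 76, all 4 TAC hearts were below all 4 sham hearts, against 12.2% of all genes. Without the 5 hearts with atrial transcripts, 34 members fell, with the same median of -0.32.

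**Figure D1:**
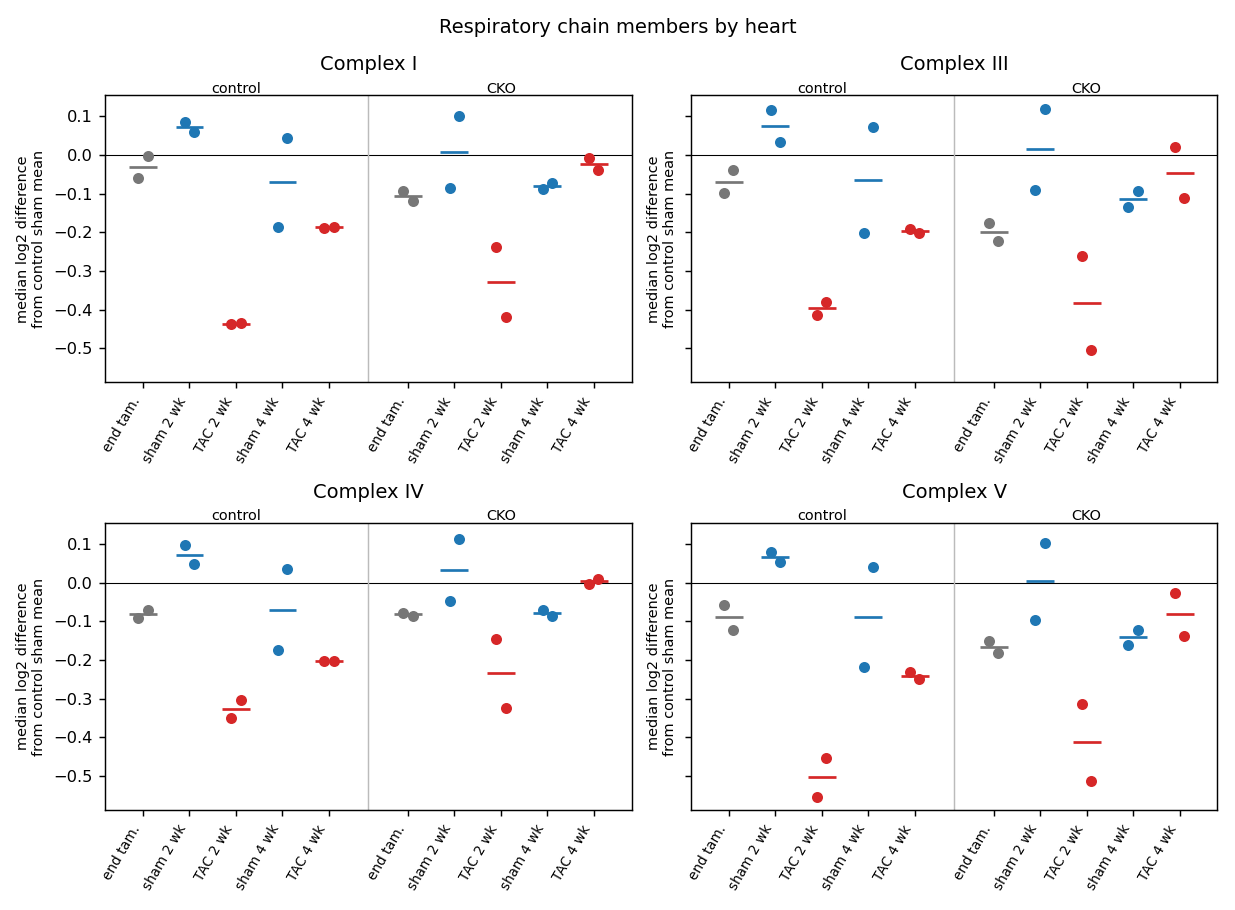
Each point is 1 heart: the median, over the members of a complex, of the log2(FPKM + 0.5) difference from the mean of the 4 control sham hearts; bars are means of the 2 hearts of a group (tam., tamoxifen). In all 4 complexes the 2 control hearts at 2 weeks of TAC lie between -0.55 and -0.30, and control sham hearts at 4 weeks are split between heart 6 and heart 7.

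The hearts themselves showed where the spread lay. In complex I the median member stood at -0.44 and -0.43 in the 2 control TAC hearts at 2 weeks, against 0.06 and 0.08 in their sham hearts. At 4 weeks it stood at -0.19 in both TAC hearts, while sham heart 7 was at 0.04 and sham heart 6 at -0.19. On this measure heart 6 was level with the TAC hearts of its time, and the same split of hearts 6 and 7 was present in complexes III, IV and V. By share of summed FPKM it was not. Members took 16.1% in heart 6 and 16.9% in heart 7, against 14.1% and 14.0% in TAC hearts 1 and 2. Summed FPKM was 614816 in heart 6, against 673994 and 681914 in hearts 1 and 2.

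At 2 weeks 63 of 76 members fell and 1 rose in control hearts, against 12.8% of all genes that fell, with a median of -0.49. By complex, 33 of 37 fell in I, 8 of 8 in III, 9 of 17 in IV and 13 of 14 in V. Without the 5 hearts with atrial transcripts, which leaves 1 heart in each group, 15 fell with a median of -0.49, and quantile normalization moved the median to -0.29 with 48 falling. At 4 weeks 3 members fell, Cox7a1, Uqcrc1 and Atp5e, against 6.37% of all genes, and the median was -0.14. That count was 7 without heart 6, 2 without heart 1, and 0 without heart 7 or without heart 2. Under quantile normalization it was 26, and the share of all genes under that setting is not given here.

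In complex I, the 7 catalytic core subunits, which carry the flavin and iron-sulphur clusters or the quinone site, all fell in control hearts over both times, by 0.34 to 0.48 on the log2 scale. Ndufs1, the largest iron-sulphur subunit of the peripheral arm (chromosome 1, 63143596 to 63176833, minus strand, mm10), was 563 and 563 FPKM in the sham hearts and 331 and 366 FPKM in the TAC hearts at 2 weeks. At 4 weeks its sham hearts had 455 and 563 FPKM and its TAC hearts 434 and 411 FPKM. All 4 TAC hearts were below all 4 sham hearts (385 ± 46.1 against 536 ± 53.8 FPKM, mean ± SD, n = 4 each). The log2 difference was -0.48 (SE 0.086, limma adjusted p = 0.000916). Ndufv1, the NADH-binding flavoprotein, fell by 0.38. Among the accessory subunits, Ndufb4 (-0.46) and Ndufs4 (-0.45) fell most, and Ndufa11 (0.01) and Ndufb3 (0.01) were level with sham over both times. Ndufa11 had -0.22 at 2 weeks and 0.24 at 4 weeks, and Ndufb3 -0.19 and 0.21, without passing at either time.

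Ndufa4l2 was the only member to rise in control hearts. Its product resembles Ndufa4 and is known as a hypoxia-induced protein; Ndufa4 itself, named as a complex I subunit, is now placed in complex IV. At 2 weeks Ndufa4l2 was 22.5 and 23.0 FPKM in sham and 39.0 and 31.7 FPKM in TAC hearts, and at 4 weeks 26.3 and 20.5 FPKM in sham and 24.6 and 22.4 FPKM in TAC hearts. The TAC hearts were thus above sham at 2 weeks and overlapped with them at 4 weeks. The log2 difference over both times was 0.32 (SE 0.11, limma adjusted p = 0.0379), and the call was lost without any 1 of hearts 1, 2, 7, 11, 12 or 16 (limma adjusted p up to 0.163). It was also lost without the 5 hearts with atrial transcripts, without a filter and with only the compared groups. Ndufs5 was erratic: it was 13.7 FPKM in heart 3 and 56.0 FPKM in heart 15, and 150 to 258 FPKM in the other hearts.

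**Figure D2:**
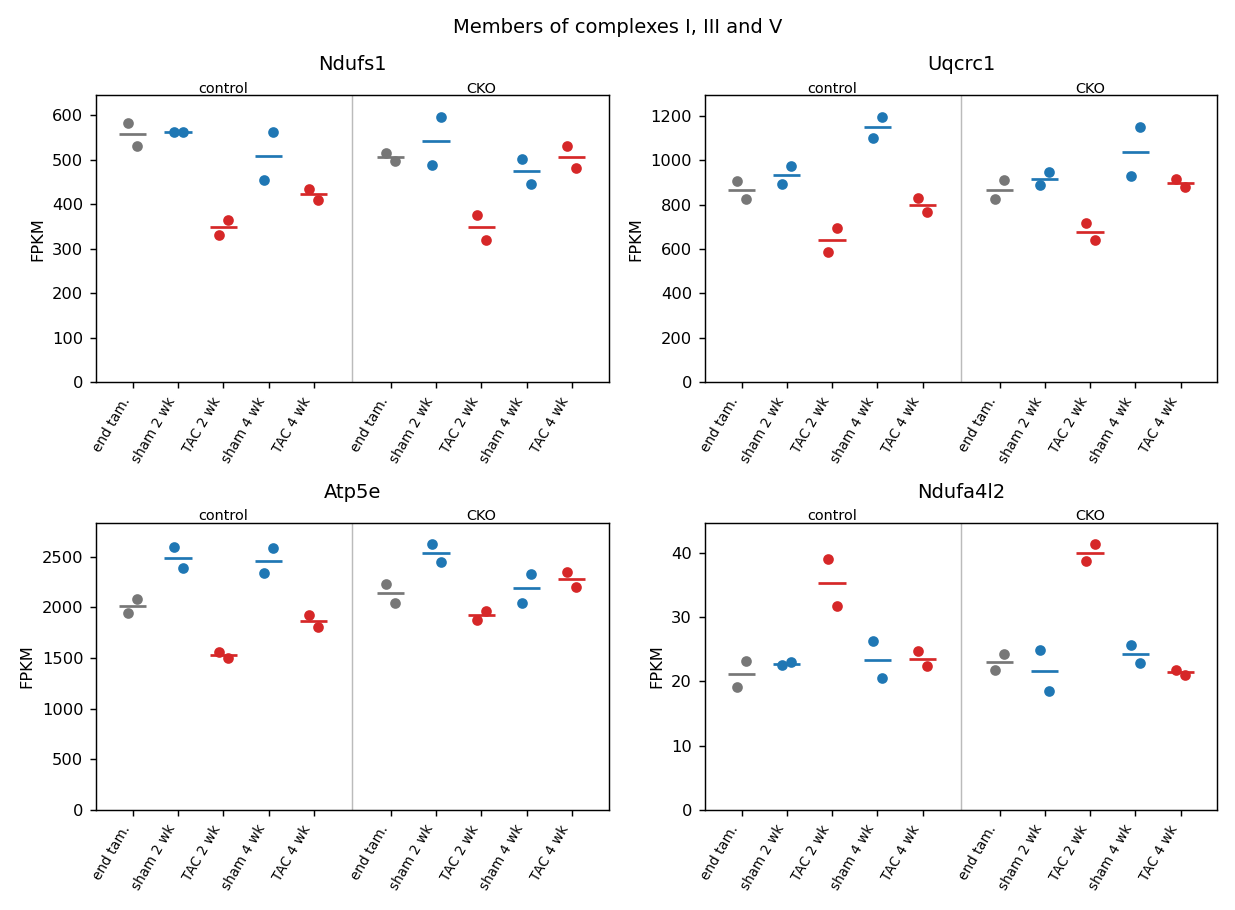
FPKM of Ndufs1 (complex I), Uqcrc1 (III), Atp5e (V) and Ndufa4l2 in each of the 20 hearts; points are hearts and bars the means of the 2 hearts of a group. Ndufs1, Uqcrc1 and Atp5e are lowest at 2 weeks of TAC in both genotypes, where Ndufa4l2 is highest (31.7 to 41.3 FPKM).

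In complex III 6 of the 8 members fell in control hearts. Uqcrc1, Uqcrc2 and Uqcrfs1, the Rieske protein, all fell over both times, with a median of -0.35, and of the 5 small subunits 3 fell (Uqcr11, Uqcrb and Uqcrq), with a median of -0.27. Uqcrc2 passed narrowly: its call was lost without any 1 of hearts 1, 2, 7, 11, 12, 16 or 32 (limma adjusted p up to 0.164), without a filter, without the trend and with only the compared groups. Without the 5 hearts with atrial transcripts the calls of Uqcrc2, Uqcrfs1, Uqcr11 and Uqcrb were lost, and that of Uqcrb also without heart 7. Uqcrc1 (chromosome 9, 108936633 to 108949623, plus strand) was 893 and 976 FPKM in sham and 584 and 693 FPKM in TAC hearts at 2 weeks, and 1100 and 1196 FPKM in sham and 830 and 766 FPKM in TAC hearts at 4 weeks. The groups did not overlap at either time. The log2 difference was -0.54 (SE 0.081, limma adjusted p = 0.000248), and it was -0.55 at 2 weeks and -0.52 at 4 weeks. Uqcr10 (-0.16) and Uqcrh (-0.18) did not pass over both times.

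In complex V 12 of the 14 members fell. All 5 subunits of the F1 head that were measured (Atp5a1, Atp5b, Atp5c1, Atp5d and Atp5e) and all 4 of the peripheral stalk (Atp5f1, Atp5h, Atp5j and Atp5o) fell in control hearts over both times, with medians of -0.41 and -0.40. Of the 5 membrane subunits 3 fell. Atp5b and Atp5g3 lost their calls without the 5 hearts with atrial transcripts. Atp5e, the smallest subunit of the head (chromosome 2, 174461072 to 174464105, minus strand), was 2598 and 2387 FPKM in sham and 1563 and 1504 FPKM in TAC hearts at 2 weeks, and 2341 and 2584 FPKM in sham and 1922 and 1802 FPKM in TAC hearts at 4 weeks. No TAC heart reached the level of a sham heart. The log2 difference was -0.55 (SE 0.064, limma adjusted p = 3.37e-05). Of the paired c-subunit genes, Atp5g3 fell by 0.36, and Atp5g1 had -0.21 and did not pass.

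In complex IV 9 of the 17 members fell. The muscle isoforms Cox7a1, Cox6a2 and Cox8b all fell in control hearts over both times. So did 5 of the 6 subunits with a single main form that were counted apart (Cox4i1, Cox5a, Cox5b, Cox6c and Cox7b), while Cox6b1 had -0.09. Cox7c, whose values are uncertain, was not among the 6 and had 0.35 without passing. Cox4i1 and Cox6b1 are also part of isoform pairs below. Of the widespread counterparts of the muscle isoforms, Cox7a2 fell by 0.35, while Cox6a1 (-0.00) and Cox8a (0.08) did not pass. Cox7a1 (chromosome 7, 30184144 to 30186078, plus strand) was 7000 and 6064 FPKM in sham and 3337 and 2731 FPKM in TAC hearts at 2 weeks, and 5811 and 7118 FPKM in sham and 4276 and 4849 FPKM in TAC hearts at 4 weeks. All TAC hearts were below all sham hearts, with means of 3798 ± 946 and 6499 ± 658 FPKM (SD, n = 4 each). Its log2 difference of -0.80 (SE 0.10, limma adjusted p = 5.54e-05) was the largest of the 76, and it was -1.11 at 2 weeks and -0.50 at 4 weeks. Cox6a2 fell by 0.33 and Cox8b by 0.30 over both times; neither passed without the 5 hearts with atrial transcripts. Cox7a2l had 0.03.

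**Figure D3:**
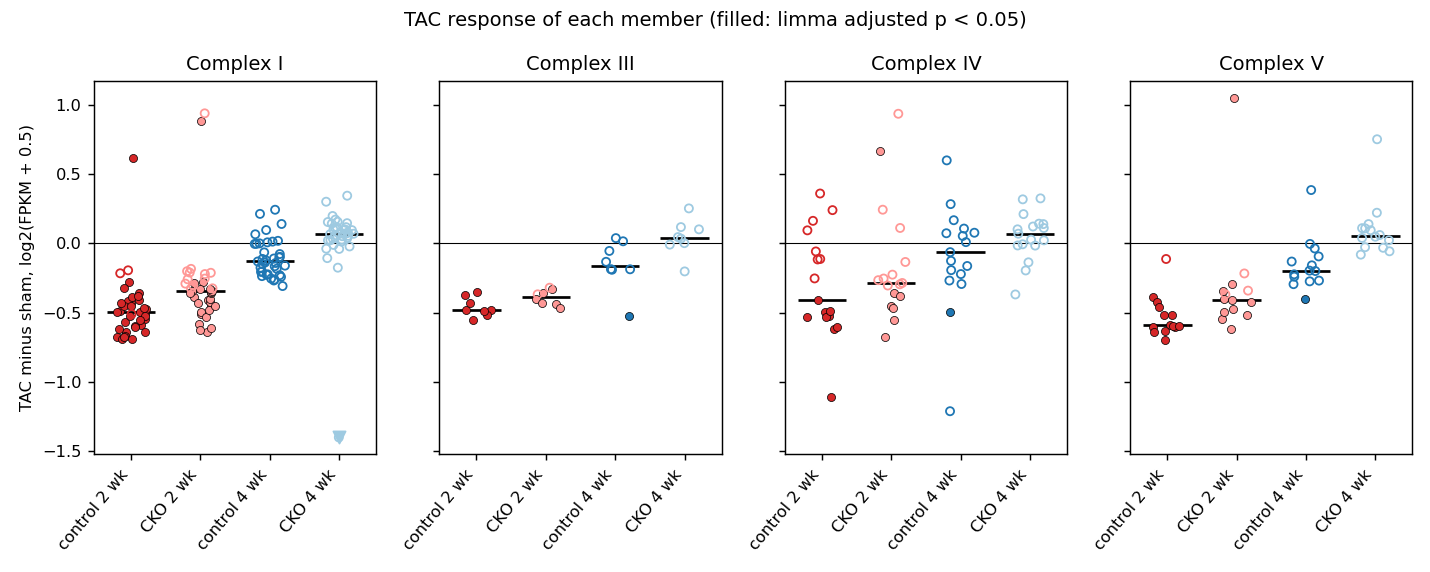
Difference between TAC and sham of every member on the log2(FPKM + 0.5) scale, by complex, genotype and time; filled points have a limma adjusted p under 0.05, bars are medians, and the triangle stands for 1 member (Ndufs5) below the axis. At 2 weeks 71 of the 76 points are below 0 in control and 69 in CKO hearts; at 4 weeks 57 are below 0 in control and 19 in CKO hearts.

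In CKO hearts respiratory chain genes fell at 2 weeks of TAC and 0 passed at 4 weeks. At 2 weeks 46 of 76 members fell, against 9.21% of all genes, and 3 rose (Ndufa4l2, Cox4i2 and Atp5l), against 10% of all genes, with a median of -0.35. All 5 head subunits of complex V, all 3 core and iron-sulphur subunits of complex III and 6 of the 7 core subunits of complex I fell. The 3 muscle isoforms of complex IV fell as well, Cox7a1 by 0.68, Cox6a2 by 0.55 and Cox8b by 0.38; under quantile normalization Cox8b had 0.04. Without heart 31 the count was 3 and without heart 15 it was 5. It was 28 without the hearts with atrial transcripts and 0 with only the compared groups in the fit, and quantile normalization gave 13 falling and 3 rising with a median of -0.13. At 4 weeks 7 members had an unadjusted p under 0.05 in limma. Of these only Ndufs5 (-1.98) was lower after TAC, and the others were higher, among them Ndufa11 (0.34) and Cox6a2 (0.32). After adjustment 0 members passed, against 0.111% of all genes that fell. The count was 1 without heart 41. The median was 0.07, and -0.04 under quantile normalization. Over both times 7 members fell, against 4.89% of all genes, among them Cox7a1, Uqcrc1, Atp5a1 and Atp5b. That count was 0 without heart 8, 15 or 31, 2 without heart 41, 3 without heart 3, 21 or 24, 4 without heart 1, 2, 12, 16, 22 or 23, 12 without heart 14 and 14 without heart 13. Without the 5 hearts with atrial transcripts it was 2. For Cox7a1 alone all 4 TAC hearts were below all 4 sham hearts, against 4.05% of all genes.

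Ndufs1 shows the pattern of the CKO hearts. It was 490 and 597 FPKM in sham and 376 and 320 FPKM in TAC hearts at 2 weeks, and 502 and 447 FPKM in sham and 531 and 483 FPKM in TAC hearts at 4 weeks. TAC hearts were below sham hearts at 2 weeks and overlapped with them at 4 weeks. Cox7a1 was 5777 and 6756 FPKM in sham and 4319 and 3536 FPKM in TAC hearts at 2 weeks, and 6171 and 6572 FPKM in sham and 5556 and 5565 FPKM in TAC hearts at 4 weeks. Ndufa4l2 rose at 2 weeks by 0.88 (SE 0.15, limma adjusted p = 0.00212), from 24.8 and 18.5 FPKM to 38.7 and 41.3 FPKM. Cox4i2, an isoform of Cox4i1 known from lung and as a hypoxia-responsive gene, rose at 2 weeks by 0.67 (SE 0.20, limma adjusted p = 0.0315), from 18.3 and 17.7 FPKM to 29.9 and 27.9 FPKM; the call was lost without heart 13, 14, 15 or 31 and without the hearts with atrial transcripts. Atp5l was the 1 member to rise over both times, against 4.23% of all genes, by 0.90 (SE 0.21, limma adjusted p = 0.0191; lost without heart 4, 15 or 31), between 1.38 to 2.16 FPKM in sham and 3.12 to 4.70 FPKM in TAC hearts, and is among the members with uncertain values.

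The TAC response did not pass a test of difference between the genotypes for any member. The difference of responses (CKO minus control) over both times was positive for 71 of 76 members and for 52.6% of all genes, with a median of 0.16 against 0.01 for all genes. In limma 0 members passed, against 0.334% of all genes that were higher, and 17 had an unadjusted p under 0.05. Quantile normalization gave 3, with the share of all genes under that setting not given here. The smallest p belonged to Atp5e (0.38, SE 0.091, limma adjusted p = 0.0604). At 2 weeks 0 passed, against 0.0159% of all genes in either direction, with 3 members at an unadjusted p under 0.05 and a median of 0.12. At 4 weeks 0 passed, against 0.747%, with 7 at an unadjusted p under 0.05 and a median of 0.20. The 4-week median was 0.32 without heart 6 and 0.08 without heart 7. These differences contain the hearts of the TAC comparisons above and are not independent of them.

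Outside TAC the genotypes gave no call. At the end of tamoxifen 0 members passed, against 0.0159% of all genes, with 2 members at an unadjusted p under 0.05 and a median of -0.07 for CKO minus control. In sham hearts 0 passed, against 0.00794%, with 1 member at an unadjusted p under 0.05 and a median of -0.04. Sham against end of tamoxifen gave 0 members in control hearts (against 0.0556%, 5 at an unadjusted p under 0.05) and 0 in CKO hearts (against 0.0715%, 11 at an unadjusted p under 0.05). Among TAC hearts the CKO minus control difference was above 0 for 71 of 76 members and 53.9% of all genes, with a median of 0.12, and 1 passed, against 3.45% of all genes in either direction. That member was Atp5e, at 1504 to 1922 FPKM in control and 1880 to 2351 FPKM in CKO TAC hearts, which overlapped. At each time, however, both CKO hearts were above both control hearts. The log2 difference was 0.31 (SE 0.064, limma adjusted p = 0.0182), and it was lost without heart 2, 3, 31 or 32, in the fit of only the TAC groups, without a filter and without the hearts with atrial transcripts. Quantile normalization gave 12 members, with the share of all genes under that setting not given here.

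In CKO hearts the response to TAC was tested against itself between the times. There 20 members had a higher response at 4 weeks and 1, Ndufa4l2 (-1.06), a lower one, against 6.54% of all genes in either direction, with a median of 0.43. Of the 20 with a higher response Cox6a2 moved most: its CKO sham hearts were 5374 and 6002 FPKM and TAC hearts 4112 and 3653 FPKM at 2 weeks, and 4744 and 4247 FPKM against 5682 and 5559 FPKM at 4 weeks. TAC hearts were thus below sham at 2 weeks and above sham at 4 weeks, and the difference of responses was 0.88 (SE 0.14, limma adjusted p = 0.00865). In control hearts the median was 0.37 and 0 members passed, against 0.00794% of all genes, with 46 members at an unadjusted p under 0.05. The test of whether this change with time differed between the genotypes gave 0 members, against 0% of all genes, and 0 at an unadjusted p under 0.05. The CKO count of 21 became 1 without heart 15 or 31, 2 without heart 8, 4 without heart 3, 6 without heart 4, 10 without heart 21 or 24, 11 without heart 41 and 13 without heart 1 or 2. It was 31 without heart 13 and 5 without the hearts with atrial transcripts, and quantile normalization gave 1 higher and 1 lower, with a median of 0.09.

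Complex IV isoforms were compared within each heart, as the log2 ratio of a pair. The ratio of the muscle form Cox7a1 to the widespread form Cox7a2 was 5.36 and 5.74 in control sham and 3.44 and 4.02 in control TAC hearts at 2 weeks, and 5.89 and 6.04 against 4.37 and 5.12 at 4 weeks. In CKO hearts it was 5.09 and 5.55 against 3.63 and 4.58 at 2 weeks, and 5.59 and 6.49 against 4.51 and 5.33 at 4 weeks. Both TAC hearts were below both sham hearts in each genotype and time. The mean over 8 hearts each was 5.72 ± 0.43 in sham and 4.38 ± 0.66 in TAC (SD). The log2 ratio differed by -0.40, with a two-sided exact permutation p = 0.00154 within genotype and time, the smallest that 1296 arrangements allow, and 0.0108 after adjustment over 7 pairs. Both genes fell in control hearts, Cox7a1 more.

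The Cox8b to Cox8a ratio was 12.8 ± 1.23 in sham and 10.5 ± 1.38 in TAC hearts (n = 8 each). Its log2 ratio differed by -0.29 (exact permutation p = 0.00309, adjusted p = 0.0108), and TAC and sham hearts overlapped in CKO hearts at 2 weeks only. Cox4i2 to Cox4i1 moved the other way, by 0.56 (exact permutation p = 0.0170, adjusted p = 0.0396), from a ratio of 0.00450 to 0.00693, with Cox4i1 far the more abundant throughout. In CKO hearts at 4 weeks the ratio was not higher after TAC: its sham hearts had 0.00539 and 0.00502 and its TAC hearts 0.00354 and 0.00606, which overlapped. The adjusted p was up to 0.0999 when single hearts were left out. The other pairs did not pass: Ndufa4l2 to Ndufa4 (0.52, exact permutation, adjusted p = 0.0519), Atp5g1 to Atp5g3 (0.15, exact permutation, adjusted p = 0.0519), Cox6a2 to Cox6a1 (-0.25, exact permutation, adjusted p = 0.0990) and Cox6b2 to Cox6b1 (-0.02, exact permutation, adjusted p = 0.966). Without the 5 hearts with atrial transcripts the Cox7a1 and Cox8b ratios differed by -0.45 and -0.26 (exact permutation, adjusted p = 0.0648 each) and the Cox4i2 ratio by 0.51 (exact permutation, adjusted p = 0.119). The genotype made no called difference in any of the 7 ratios (differences of -0.06 to 0.10, exact permutation, adjusted p = 0.960 for each).

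**Figure D4:**
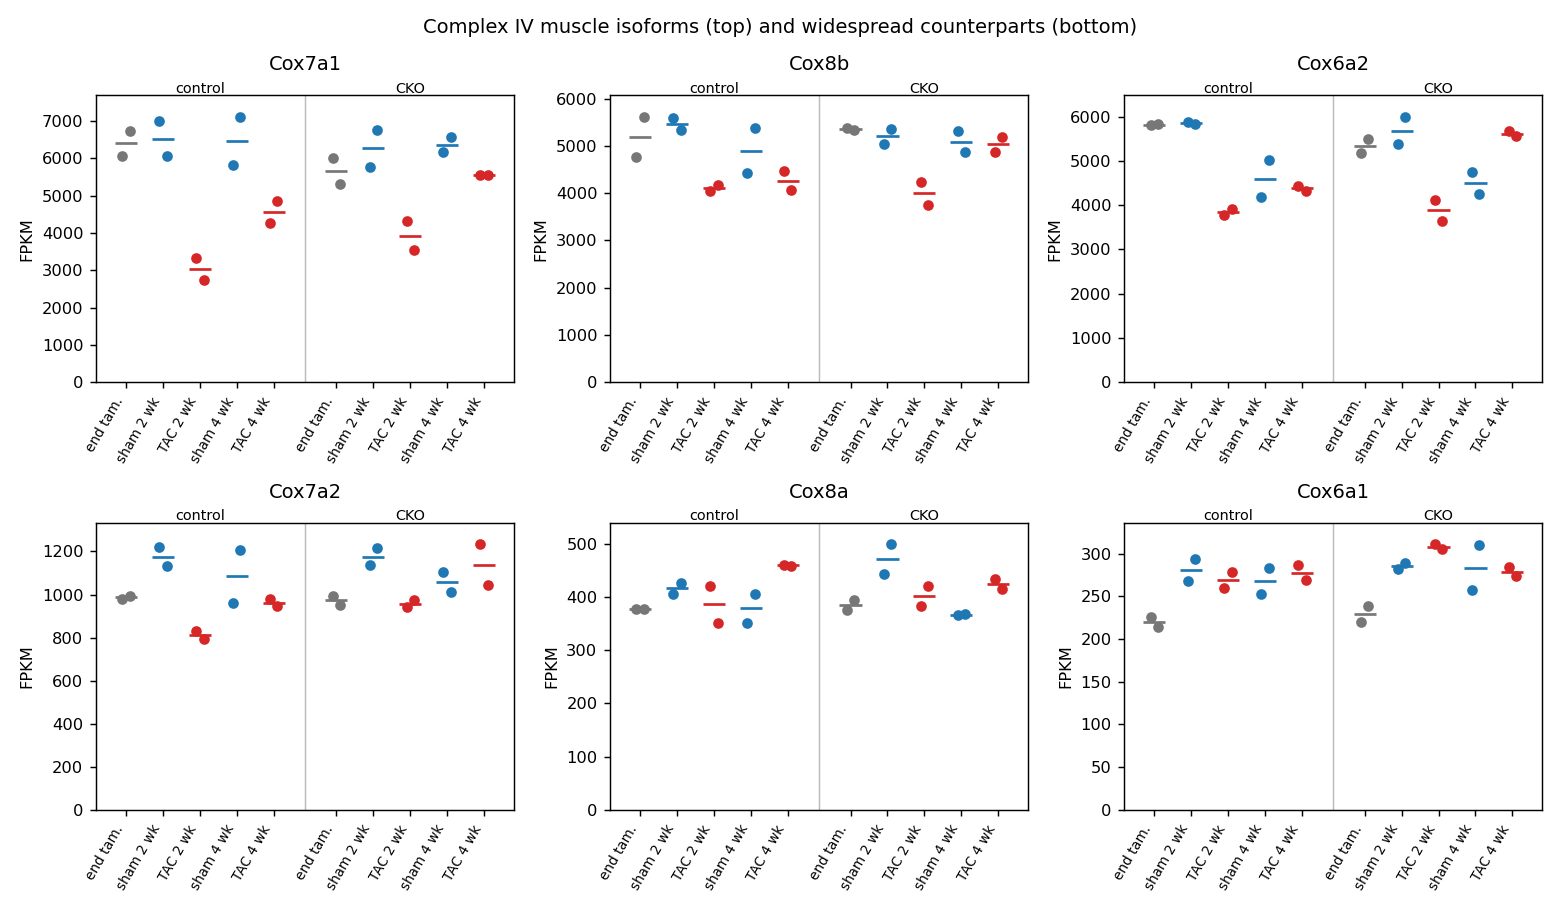
FPKM of the complex IV muscle isoforms Cox7a1, Cox8b and Cox6a2 (top) and of their widespread counterparts Cox7a2, Cox8a and Cox6a1 (bottom) in each heart; bars are means of the 2 hearts of a group. The muscle isoforms are several times more abundant and lowest at 2 weeks of TAC, while Cox6a1 stays between 214 and 311 FPKM.

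**Figure D5:**
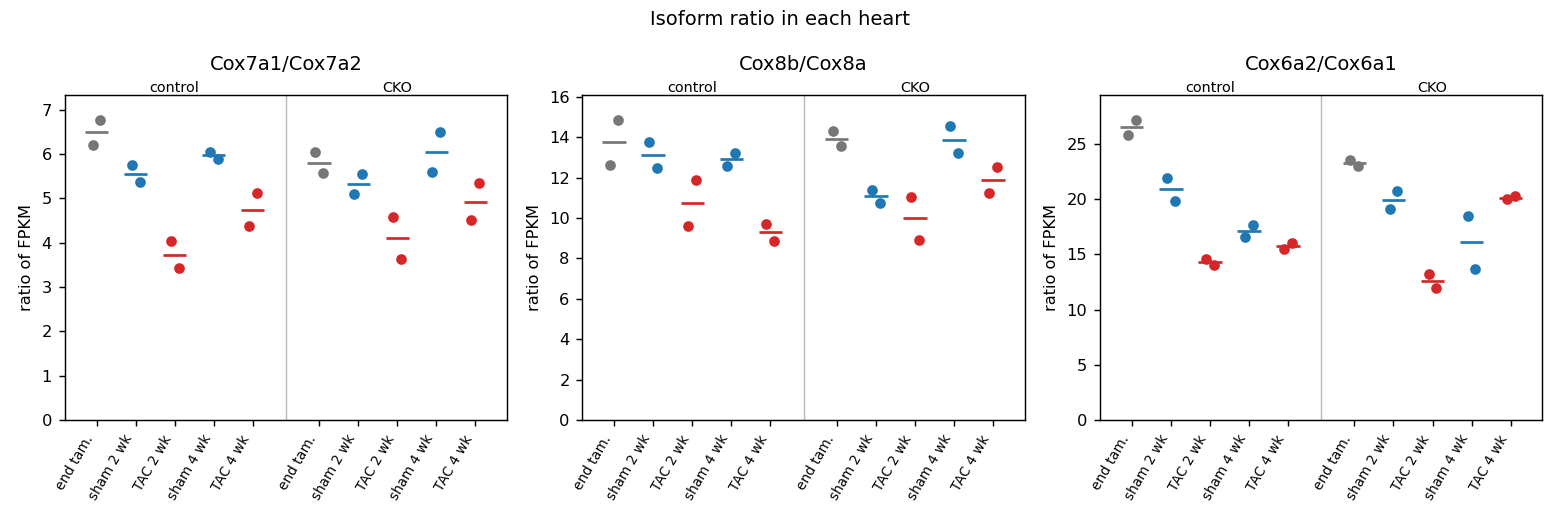
Ratio of FPKM of 3 isoform pairs in each heart, with bars for the means of the 2 hearts of a group. For Cox7a1/Cox7a2 both TAC hearts lie below both sham hearts at each time in both genotypes; Cox6a2/Cox6a1 averages 12.6 at 2 weeks and 20.2 at 4 weeks of TAC in CKO hearts.

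The upstream sequences of 4 members are shown because the data set them side by side: Cox7a1 fell most, its counterpart Cox7a2 fell less, Atp5e had the smallest p in control hearts, and Cox6a1 was level. Each runs 5′ to 3′ on the strand of the gene and spans 200 bases that end 50 bases before the start of transcription (RefSeq, build GRCm38.p6): chr7:30183921-30184120 (plus strand) for Cox7a1, chr9:79759904-79760103 (minus) for Cox7a2, chr5:115349009-115349208 (minus) for Cox6a1 and chr2:174464152-174464351 (minus) for Atp5e. Capitals mark matches to the motifs searched.
Cox7a1: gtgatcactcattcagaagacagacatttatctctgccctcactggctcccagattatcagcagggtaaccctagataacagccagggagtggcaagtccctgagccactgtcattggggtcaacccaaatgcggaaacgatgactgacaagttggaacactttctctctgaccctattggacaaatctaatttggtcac
Cox7a2: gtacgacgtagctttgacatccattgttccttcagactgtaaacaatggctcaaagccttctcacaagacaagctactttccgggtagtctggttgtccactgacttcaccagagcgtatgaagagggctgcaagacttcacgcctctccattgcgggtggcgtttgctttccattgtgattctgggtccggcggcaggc
Cox6a1: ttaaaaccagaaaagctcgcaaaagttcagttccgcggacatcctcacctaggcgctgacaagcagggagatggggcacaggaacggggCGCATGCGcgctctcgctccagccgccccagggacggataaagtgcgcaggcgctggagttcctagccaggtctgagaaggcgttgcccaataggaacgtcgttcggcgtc
Atp5e: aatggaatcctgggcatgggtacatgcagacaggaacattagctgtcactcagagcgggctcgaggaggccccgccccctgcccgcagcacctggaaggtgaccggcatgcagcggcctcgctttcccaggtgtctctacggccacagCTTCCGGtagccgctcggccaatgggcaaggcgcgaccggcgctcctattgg
Cox6a1 held the core motif of the nuclear respiratory factor NRF1 and Atp5e an ETS motif, the kind bound by GABPA, in reverse orientation; the 2 Cox7a windows held none of the 4 motifs. In the full 300-base windows Cox6a1 also held 1 ETS motif and Atp5e 1 motif of oestrogen-related receptors, outside the bases printed.

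Promoter windows of 300 bases (250 before to 50 after the start) were found for 62 of the 76 members. On either strand, CGCATGCG (NRF1) was present in 11.3% of them and in 1.91% of 27025 promoters in the table, CCGGAAG (ETS) in 21.0% and 9.12%, AAGGTCA (a motif of oestrogen-related receptors) in 11.3% and 4.66%, and the MEF2 motif in 1.61% and 3.70%. None of the 4 motifs contains another. These are matches of letters, not sites of binding.

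Other genes of mitochondrial respiration were counted from lists. Counts in control hearts are to be read against the 16.1% of all genes that fell and 15.3% that rose there. Of the 4 subunits of complex II, succinate dehydrogenase, 3 fell in control hearts over both times (Sdha by 0.69, Sdhc by 0.64 and Sdhb by 0.47). In CKO hearts 2 of them fell, against 4.89% of all genes that fell there. Cyc1, the cytochrome c1 of complex III, fell by 0.35 and Cycs, the mobile electron carrier, by 0.43 in control hearts. Among 10 regulators of mitochondrial genes 4 fell in control hearts, among them Ppargc1a by 0.49, a co-activator, Esrra by 0.43, an orphan receptor, and Gabpa by 0.38, while Nrf1 (-0.12) and Tfam (-0.07) did not pass. Of assembly factors, 3 of 10 for complex I, 2 of 3 for complex III and 2 of 13 for complex IV fell, and 1 of the 13 rose; the complex IV share was near that of all genes. Of 4 assembly factors and inhibitors of complex V 2 fell and 1 rose, Atpif1, the inhibitor, by 0.38. Of 75 genes of the mitochondrial ribosome 22 fell and 6 rose, and of 64 genes of the cytosolic ribosome 11 rose, a share near that of all genes.

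Other cell types moved at the same time. Markers of control hearts are given over both times only, so their shifts at 2 weeks alone are not shown here. In control hearts over both times 7 of 8 fibroblast markers rose, with a median of 0.90, and 4 of 7 macrophage markers rose, with a median of 0.57. Of 6 endothelial markers 1 rose, near the 15.3% of all genes that rose, and of the 3 atrial markers that could be tested 0 passed. In CKO hearts over both times 4 of the 8 fibroblast markers rose and 0 macrophage markers passed, against 4.23% of all genes that rose there. At 2 weeks in CKO hearts 5 of 8 fibroblast, 3 of 7 macrophage and 3 of 6 endothelial markers rose, against 10% of all genes. There 4 of the 12 heart muscle markers fell, against 9.21% of all genes, with a median of -0.34. The 3 atrial markers had a median of -3.89 without passing. At 4 weeks in CKO hearts 0 of these markers passed. Summed fibroblast markers were 684 to 773 FPKM in control sham and 843 to 1461 FPKM in control TAC hearts, and 743 to 798 FPKM in CKO sham and 603 to 1100 FPKM in CKO TAC hearts. Summed macrophage markers were 204 to 424 FPKM in control sham and 317 to 499 FPKM in control TAC hearts, and 285 to 391 FPKM against 252 to 589 FPKM in CKO hearts. Of the 12 heart muscle markers 3 rose and 2 fell in control hearts, with a median of -0.02, and their sum was 102035 to 128824 FPKM in sham and 103260 to 126521 FPKM in TAC hearts. In CKO hearts the sums were 113711 to 133598 and 93660 to 134387 FPKM. No fibroblast or macrophage marker was at 0 in any heart. The part of these shifts in the fall of respiratory chain transcripts was not tested.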

How the data were processed

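Messenger RNA was measured in 20 hearts by RNA sequencing of total RNA with a stranded library kit, per the labels' protocols. Reads were aligned to mm10 with TopHat2 2.1.1 and Bowtie2, and Cuffdiff 2.2.1 gave the gene values, per the submitters' processing notes. The values deposited by the authors are FPKM, 1 table per heart; the tables hold no counts, so count models were not used and depth is unknown.

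Values were analysed as log2(FPKM + 0.5), for the genes that averaged 0.5 FPKM or more, so differences of low genes are understated. One linear model with 10 group means was fitted in limma 3.58.1 (R 4.3.3) with a prior that follows the mean (10 residual and 3.81 prior degrees of freedom), and p-values were adjusted by Benjamini-Hochberg over 12589 genes; calls have an adjusted p under 0.05. Contrasts over both times weight the times equally. Isoform ratios were compared by two-sided exact permutation of hearts within genotype and time (1296 arrangements) or, between genotypes, within each stage (7776). The fit was tested on simulated data. Nothing in the labels says how hearts of a group relate beyond their numbers, so p-values measure the spread between these samples.

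Gene positions are those of GENCODE M21 (75 of 76 members matched; Atp5o did not), and promoters those of RefSeq. The members and gene lists were chosen with earlier results of these data known. Named members were, per comparison and complex, up to 5 with the smallest p, up to 3 against the complex median, the extremes, both members of each isoform pair with Cox7a2l, and the 5 most and 3 least abundant; members of a role group were also named with their group, and genes outside the members were named from their lists after their values were seen. Results were recomputed with a pseudocount of 0.1 or 1 FPKM, with no filter or one of 3 FPKM, with median-ratio scaling, quantile normalization, only the compared groups, no trend, no strata, and each heart left out; 1 member is counted but not reported by name here, and a fit without hearts with Myl7 of 10 FPKM or more was added after the data were seen.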

Additional observations from a re-analysis of the deposited data

Results flagged for a closer look

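The TAC response of CKO hearts at 4 weeks was tested against that at 2 weeks in limma, and the members that passed are given here because their response differed between the times. The response was higher at 4 weeks for 20 members and lower for 1, against 6.54% of all genes in either direction. On the log2(FPKM + 0.5) scale the difference was, among others, 0.88 for Cox6a2, 0.81 for Ndufa1, 0.72 for Ndufa10, 0.66 for Uqcr10, 0.62 for Atp5c1, 0.61 for Ndufa13, 0.58 for Atp5j, 0.57 for Cox5a, 0.54 for Ndufa11, 0.54 for Ndufb10, 0.48 for Cox4i1, 0.48 for Uqcr11 and 0.46 for Atp5e. It was -1.06 for Ndufa4l2. In the same comparison the 8 fibroblast markers had a median of -1.215 and 5 of them passed as lower, and 3 of 6 endothelial markers passed as lower, with a median of -0.58. The 7 macrophage markers had a median of -0.74 and 0 passed. Of the 12 heart muscle markers 2 passed as higher, with a median of 0.43, and the 3 atrial markers had a median of 3.43 and 0 passed. The part of these shifts in the members' change was not tested. As given above, the count of members moved strongly with single hearts left out and under quantile normalization. Members of control hearts shifted the same way without passing. No member passed the test of whether the change with time differed between the genotypes.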

How the results depend on the processing

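Pseudocounts of 0.1 and 1 FPKM and a filter of 3 FPKM left the counts of members per comparison within 1.5 times of those reported. So did median-ratio scaling, but its factors were almost the same for all hearts and left the values nearly unchanged. That setting therefore could not test whether the counts depend on scaling. With the 5 hearts with atrial transcripts left out, counts were 34 (TAC in control hearts, both times; 55 reported), 15 (2 weeks; 63), 2 (CKO, both times; 7), 28 (CKO, 2 weeks; 46), 0 (CKO against control in TAC hearts; 1) and 5 (4 against 2 weeks, CKO; 21); the end-of-tamoxifen comparisons of CKO hearts could not be fitted. With only the compared groups in the fit, which share fewer residual degrees of freedom, counts were 39 (control, 2 weeks) and 0 (control, 4 weeks; CKO, both times; CKO, 2 weeks; CKO against control; 4 against 2 weeks). Quantile normalization gave 26 (control, 4 weeks), 13 (CKO, 2 weeks), 3 (difference of responses), 12 (CKO against control) and 2 (4 against 2 weeks); Cox8b at 2 weeks in CKO hearts went to 0.044. Without a filter, counts were 1 (CKO, both times), 0 (CKO against control) and 9 (4 against 2 weeks), and without the trend 4 and 10. Shares of all genes called under these other settings are not given here, so the counts cannot be set against them. The causes were not tested.

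With each heart left out in turn, counts ranged 42 to 59 (control, both times), 44 to 63 (2 weeks), 0 to 7 (4 weeks), 0 to 14 (CKO, both times), 3 to 52 (2 weeks), 0 to 1 (4 weeks), 0 to 1 (difference of responses, 4 weeks), 0 to 2 (CKO against control in TAC hearts) and 1 to 31 (4 against 2 weeks, CKO); the group left with 1 heart is assumed to vary like the others. The other counts stayed at 0. For TAC, isoform ratios ranged 0.47 to 0.65 (Cox4i2/Cox4i1, adjusted p up to 0.0999), -0.30 to -0.19 (Cox6a2/Cox6a1), -0.30 to 0.26 (Cox6b2/Cox6b1), -0.44 to -0.36 (Cox7a1/Cox7a2), -0.33 to -0.25 (Cox8b/Cox8a), 0.44 to 0.60 (Ndufa4l2/Ndufa4) and 0.10 to 0.20 (Atp5g1/Atp5g3), from exact permutation tests. For genotype they ranged -0.082 to 0.0040 (Cox6a2/Cox6a1), -0.25 to 0.20 (Cox6b2/Cox6b1), -0.038 to 0.029 (Cox7a1/Cox7a2), -0.0051 to 0.057 (Cox8b/Cox8a) and -0.057 to 0.067 (Ndufa4l2/Ndufa4). Without hearts with atrial transcripts the TAC ratios were 0.51 (Cox4i2), 0.27 (Cox6b2), -0.45 (Cox7a1) and -0.26 (Cox8b). A pseudocount of 1 FPKM brought Ndufa4l2/Ndufa4 (0.51) and Atp5g1/Atp5g3 (0.15) past the threshold, and exchange without strata brought Ndufa4l2/Ndufa4 (0.52). No paired analysis was possible because each heart number occurs once.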
